A study of Mus musculus with 12 samples.

Results

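The genes described here encode the receptors for serotonin, noradrenaline and acetylcholine. They were chosen by name: genes to which the array annotation gave a single symbol of the Htr1 to Htr7, Adra, Adrb, Chrm or Chrn families were taken, with 1 serotonin receptor gene left out, and where several probe sets measured a gene, the one that read highest on average stood for it. This gave 32 of the 18193 named genes: 12 serotonin receptor genes, 2 adrenergic receptor genes (Adra1b and Adra2c), 3 muscarinic receptor genes (Chrm1, Chrm3 and Chrm4) and 15 nicotinic receptor subunit genes. A further 11 genes of these families in the RefSeq gene table are not named in the probe annotation and were not analysed here, among them Htr2a, Adra2a, the beta-adrenergic genes and Chrm2.

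RNA came from prefrontal cortex and whole striatum of male Swiss mice, which could choose from the age of 6 weeks between water and ethanol at 5% and 10%. The phases were 10 weeks of acquisition, 2 weeks of withdrawal, renewed access, and a last phase with quinine (0.005 g/L) in the ethanol bottles, and the mice were 22 weeks old at the end. Inflexible drinkers kept preferring ethanol when it was bitter, with a blood ethanol of 113 ± 11.3 mg/dL, and light drinkers drank mainly water, with 48 ± 13.3 mg/dL (error type not given in the labels). The 4 groups were inflexible prefrontal cortex, light prefrontal cortex, inflexible striatum and light striatum, with 3 arrays each. Both classes had ethanol on offer and were sorted by their own intake, and mice of other drinking classes or with water alone were not analysed here. A single pooled RNA concentration is given per group, so the 3 arrays may share 1 pool. Every p-value below therefore measures the spread between arrays, which may be technical, and not between mice.

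The receptors of these 3 transmitters fall into 4 signalling classes. Receptors coupled to Gi or Go (the Htr1 and Htr5 genes, Adra2c, Chrm4) lower cyclic AMP and often sit on axon terminals, where they restrain transmitter release. Gq-coupled receptors (Htr2b, Htr2c, Adra1b, Chrm1, Chrm3) raise intracellular calcium, and Gs-coupled receptors (Htr4, Htr6, Htr7) raise cyclic AMP. The nicotinic subunits and Htr3b form ion channels made of 5 subunits. Serotonin and noradrenaline reach both regions along axons from cell bodies in the brainstem, where the enzymes that make them are transcribed, while acetylcholine in the striatum is also made by local interneurons.

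Levels are the deposited probe set values on a log2 scale, with mean ± SD over 3 arrays unless stated; differences are given ± SE with a 95% interval. Probe sets differ in how well they bind, so levels of different genes cannot be ranked, and differences were tested only within a gene. Between 22.4% and 25.0% of the probe sets of an array lay above log2 4, and array medians were 3.12 to 3.14. The arrays separated into 5 with high and 7 with low values of the 18 spiked hybridisation controls, with high arrays in every group (inflexible prefrontal cortex 2, light prefrontal cortex 2, inflexible striatum 1 and 3, light striatum 1). No label names a batch and the origin of this separation is not known. Values with it as a block, or within one set of arrays, are therefore given where they change a call of a receptor gene. Each group holds 1 high-control array apart from inflexible striatum, which holds 2 and has 1 low-control array. A difference among high-control arrays therefore rests on single arrays and is given as a value with no test. Each of the other 3 groups has 2 low-control arrays. The fit of low-control arrays alone had 3 residual degrees of freedom, so its SEs and p-values rest on few arrays.

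Few of the receptor genes stood clear of the lower end of the scale. The mean over the 12 arrays exceeded log2 4 for 4 of the 32 genes (12.5%), against 6593 of the 18193 named genes (36.2%). These were the serotonin receptor genes Htr1b and Htr2c, the muscarinic gene Chrm1 and the nicotinic subunit gene Chrna7. By group, 3 genes (Htr2c, Chrm1 and Chrna7) exceeded log2 4 in prefrontal cortex of either class, and the same 3 with Htr1b did so in striatum of either class. Among all probe sets, which include further probe sets of a gene and those without a single symbol, 24.0% to 24.2% did so in each group. Shares of all probe sets given below have this same base, while each receptor gene is counted by its highest-reading probe set. Adra2c, Htr1a and Chrnb2 had their highest group mean between log2 3.5 and 4. The remaining 25 genes stayed below log2 3.5 in all 4 groups, with group means from 2.87 to 3.46. Of the 27 other probe sets of these genes, 0 had a mean above log2 4.

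**Figure D1:**
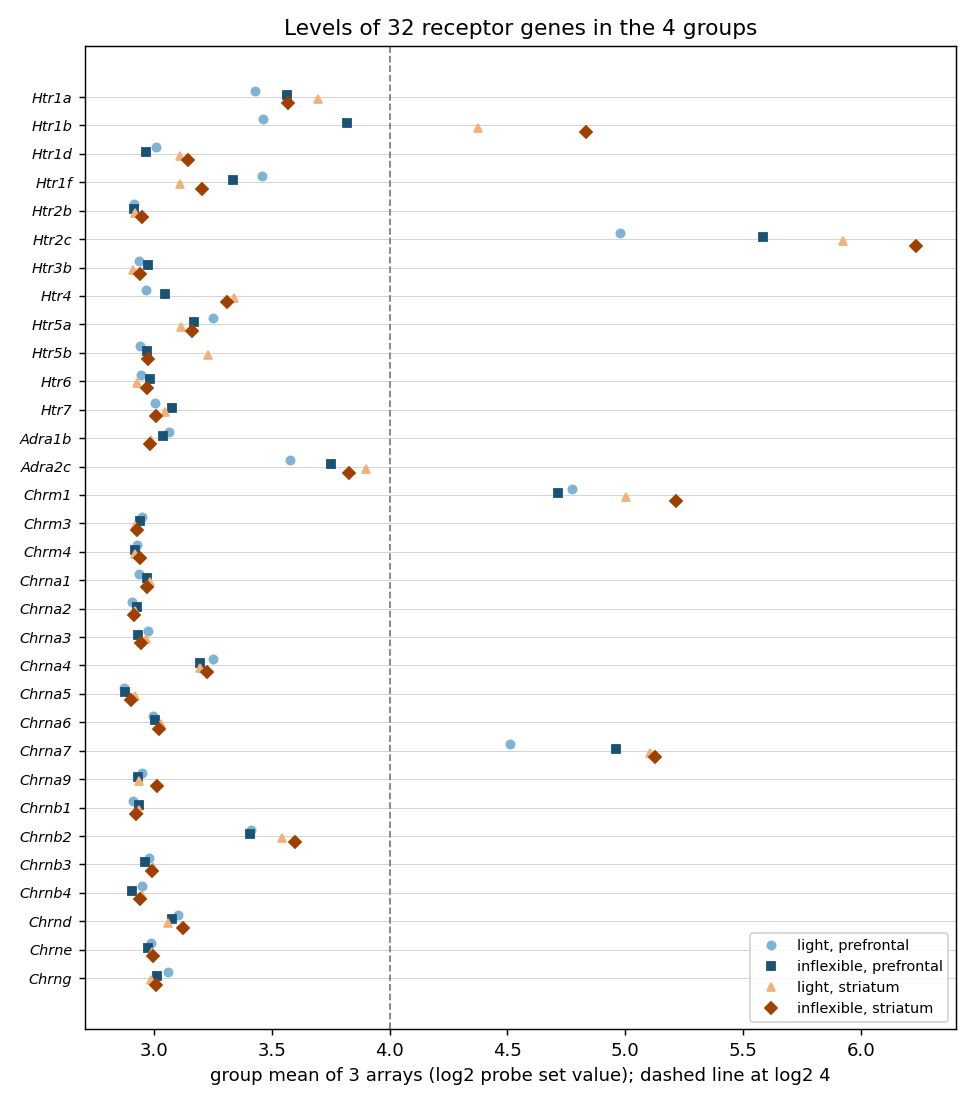
Mean log2 value of 3 arrays in each of the 4 groups (marker shape and colour) for each of the 32 receptor genes, with a dashed line at log2 4. Htr2c, Chrm1 and Chrna7 lie right of the line in all 4 groups, Htr1b lies right of it only in the 2 striatal groups, and 25 genes lie below 3.5 throughout.

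Among the Gi-coupled receptors, Htr1b showed the clearest pattern. It encodes the serotonin receptor found on axon terminals, including those of striatal projection neurons. Its probe set (1442077_at) read 3.52, 3.48 and 3.38 in light prefrontal cortex and 3.87, 3.65 and 3.94 in inflexible prefrontal cortex. In striatum it read 4.35, 4.35 and 4.43 in light drinkers and 4.46, 4.87 and 5.17 in inflexible drinkers. All 6 striatal arrays lay above all 6 prefrontal arrays, and within each region the inflexible arrays lay above the light ones. Htr1b was higher in striatum than in prefrontal cortex by 0.91 ± 0.15 in light drinkers (95% interval 0.58 to 1.25, 1.88-fold, limma adjusted p = 0.0081). In inflexible drinkers the regional difference was 1.01 ± 0.15 (0.68 to 1.35, 2.02-fold, limma adjusted p = 0.0155). In a bulk sample, fewer cells of a type and less RNA per cell cannot be told apart.

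Between the drinking classes Htr1b did not pass the test in either region. The inflexible minus light difference was 0.36 ± 0.15 in prefrontal cortex (0.02 to 0.69, limma adjusted p = 0.598). In striatum it was 0.46 ± 0.15 (0.13 to 0.79, limma adjusted p = 1.00). Within the arrays of low hybridisation controls the regional difference in light drinkers was 0.94 ± 0.06, and the single arrays of high controls differed by 0.86. With arrays of low controls alone the prefrontal class difference was 0.45 ± 0.06 with an adjusted p of 0.0381, and between the single arrays of high controls it was 0.17. The second Htr1b probe set (1422288_at) stayed between 3.29 and 3.41 in its group means, and its striatum minus prefrontal difference in light drinkers was 0.11 ± 0.05 (adjusted p = 0.491).

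Htr1a, the Gi-coupled serotonin receptor that also acts as the autoreceptor of raphe neurons, was read below log2 4 in all 4 groups (1438710_at). Its values were 3.44, 3.33 and 3.52 in light prefrontal cortex and 3.54, 3.51 and 3.64 in inflexible prefrontal cortex. Light striatum gave 3.66, 3.70 and 3.73, and inflexible striatum 3.53, 3.66 and 3.51. The light striatal arrays were the highest of all and the light prefrontal arrays mostly the lowest, with both inflexible groups between them. In light drinkers Htr1a was higher in striatum by 0.27 ± 0.06 (0.14 to 0.40, limma adjusted p = 0.0351). In inflexible drinkers the 2 regions differed by 0.01 ± 0.06 (-0.12 to 0.14). The second Htr1a probe set (1450219_at) did not show the difference of light drinkers: its group means were 2.99 in light prefrontal cortex and 2.99 in light striatum. The difference in light drinkers was 0.24 ± 0.05 among the low-control arrays and 0.34 between the single high-control arrays. The call in light drinkers was lost with an intensity-dependent prior (limma-trend, adjusted p = 0.0716) and when any of 7 arrays was left out. The adjusted p was then 0.0587 without inflexible prefrontal cortex replicate 1, 0.109 and 0.0888 without light prefrontal cortex replicates 1 and 2, 0.0508 without inflexible striatum replicate 1, and 0.0690, 0.115 and 0.125 without light striatum replicates 1, 2 and 3.

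Htr5b, a serotonin receptor gene that is intact in mice, had a similar arrangement near the bottom of the scale (1422196_at). The arrays read 2.94, 2.93 and 2.95 in light prefrontal cortex, 2.99, 2.97 and 2.95 in inflexible prefrontal cortex, and 2.92, 3.04 and 2.97 in inflexible striatum. Light striatum stood apart from these 9 arrays at 3.33, 3.17 and 3.19. The regional difference in light drinkers was 0.29 ± 0.05 (0.19 to 0.39, limma adjusted p = 0.0063), and in inflexible drinkers it was 0.00 ± 0.05 (-0.10 to 0.11). Among the low-control arrays the light difference of Htr5b was 0.24 ± 0.02, and between the single high-control arrays it was 0.40. Within striatum the class difference of Htr5b was -0.25 ± 0.05 (-0.36 to -0.15), which did not pass after adjustment over all probe sets (limma adjusted p = 0.251). The highest of the 12 values, 3.33, was little above the median of an array.

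Adra2c, the presynaptic adrenergic receptor gene that is abundant in striatal projection neurons, was measured by 4 probe sets, and they did not all read alike. The representative (1422335_at) read 3.59, 3.47 and 3.67 in light prefrontal cortex, 3.77, 3.67 and 3.80 in inflexible prefrontal cortex, 3.70, 3.98 and 4.01 in light striatum and 3.74, 3.88 and 3.86 in inflexible striatum. Its regional difference was 0.32 ± 0.09 in light drinkers (limma adjusted p = 0.0890) and 0.08 ± 0.09 in inflexible drinkers. With the block the light difference of Adra2c was 0.32 ± 0.05 and passed (adjusted p = 0.0046). It was 0.37 ± 0.03 among the low-control arrays (adjusted p = 0.0060) and 0.23 between the single high-control arrays. A second probe set with nearly the same mean (1435296_at), singled out after its values were seen, had its largest regional difference in the other class. It read 3.52, 3.29 and 3.59 in inflexible prefrontal cortex and 4.31, 4.22 and 3.96 in inflexible striatum, a difference of 0.70 ± 0.12 (0.42 to 0.97, limma adjusted p = 0.0373). In light drinkers the same probe set differed by 0.48 ± 0.12 (adjusted p = 0.0806). The other 2 Adra2c probe sets had group means of 2.89 to 2.98.

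The other Gi-coupled genes stayed below log2 3.5. Htr1f, a serotonin receptor gene of cortical neurons, read 3.38, 3.74 and 3.25 in light prefrontal cortex and 3.01, 3.14 and 3.17 in light striatum. Its striatal values were lower without overlap, with a difference of -0.35 ± 0.13 (-0.64 to -0.06, limma adjusted p = 0.290). The second Htr1f probe set (1450548_at) had group means of 3.05 in light prefrontal cortex and 3.06 in light striatum. Htr1d had group means of 2.97 to 3.15 and Htr5a of 3.11 to 3.25. A second Htr1d probe set with nearly the same mean (1440166_x_at), singled out after its values were seen, read higher in striatum without overlap in both classes. Its group means were 2.92 in light prefrontal cortex against 3.14 in light striatum, and 2.96 against 3.19 in inflexible drinkers. The third Htr1d probe set (1422290_at) had group means of 2.90 to 2.98. Between the regions, 16.3% of all probe sets did not overlap in light and 11.5% in inflexible drinkers. Chrm4, the muscarinic receptor known from striatal projection neurons that carry the D1 dopamine receptor, had group means of 2.92 to 2.94, with 2.92 ± 0.06 in light striatum and 2.93 ± 0.04 in light prefrontal cortex. The Chrm4 arrays of the 2 regions overlapped in both classes, while Drd1 itself read 5.99 in light striatum and 3.72 in light prefrontal cortex.

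**Figure D2:**
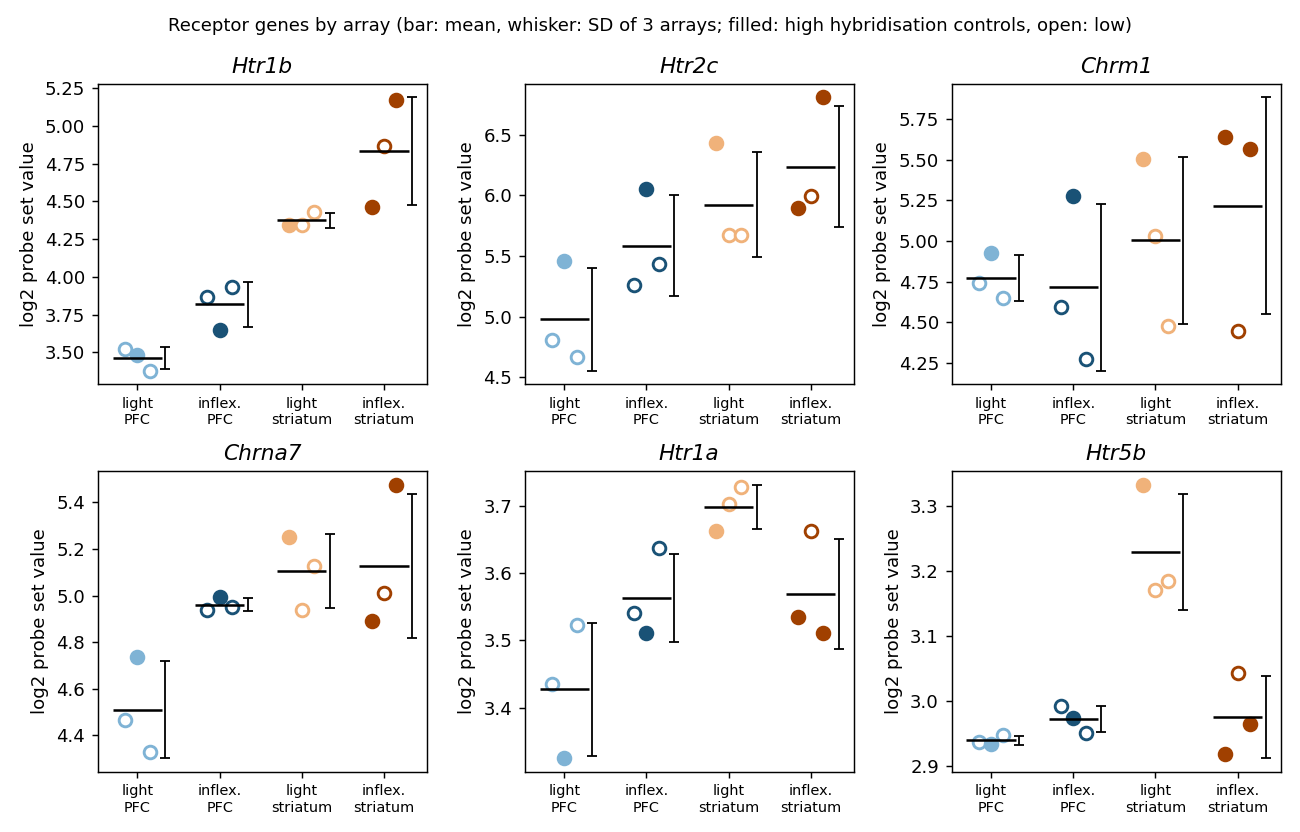
Log2 value on each array for the 6 receptor genes given in full, with groups on the horizontal axis, the group mean as a bar and its SD as a whisker; filled points are arrays with high hybridisation controls and open points those with low. Htr1b separates the regions on every array, Htr5b is raised only on the light striatal arrays, and the highest Htr2c and Chrm1 points of each group are filled.

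The Gq-coupled receptors held the 2 genes with the widest spread between arrays. Htr2c encodes a serotonin receptor of striatal and cortical neurons that is also very abundant in the choroid plexus (1435513_at). It read 4.81, 5.46 and 4.67 in light prefrontal cortex and 5.26, 6.05 and 5.44 in inflexible prefrontal cortex. In striatum the arrays read 6.43, 5.67 and 5.67 in light drinkers and 5.90, 6.00 and 6.81 in inflexible drinkers. The highest array of each group was one with high hybridisation controls. Striatum was above prefrontal cortex without overlap in light drinkers, by 0.95 ± 0.33 (0.20 to 1.69, limma adjusted p = 0.240), whereas the inflexible groups overlapped (0.65 ± 0.33, -0.09 to 1.39).

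With the separation of the arrays as a block, the regional difference of Htr2c in light drinkers kept its size and passed the test, at 0.95 ± 0.20 (0.50 to 1.39, adjusted p = 0.0201). It was 0.94 ± 0.07 among the arrays with low controls (adjusted p = 0.0045) and 0.97 between the single arrays with high controls. The class difference of Htr2c in prefrontal cortex was 0.61 ± 0.33 (-0.14 to 1.35, limma adjusted p = 0.821), 0.61 ± 0.07 among the low-control arrays (limma adjusted p = 0.0323) and 0.59 between the single high-control arrays. In striatum the class difference was 0.31 ± 0.33 (-0.43 to 1.05). Ttr, which marks the choroid plexus, was like Htr2c lowest in light prefrontal cortex and next lowest in inflexible prefrontal cortex: it averaged 4.53 in light prefrontal cortex, 10.78 in inflexible prefrontal cortex, 11.33 in light striatum and 11.04 in inflexible striatum. Within striatum the mean of Ttr was higher in light drinkers, whereas that of Htr2c was higher in inflexible drinkers. The part of choroid plexus or of medium spiny neurons in the Htr2c values was not tested. The second Htr2c probe set (1450477_at) had group means of 2.93 to 2.94.

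Chrm1 encodes the main postsynaptic muscarinic receptor of cortex and striatum (1439611_at). It read 4.74, 4.93 and 4.65 in light prefrontal cortex, 4.59, 5.28 and 4.27 in inflexible prefrontal cortex, 5.51, 5.03 and 4.48 in light striatum and 5.64, 4.44 and 5.57 in inflexible striatum. All 4 groups overlapped, and SDs ran from 0.14 to 0.67. No difference was detectable at this spread: the class difference was -0.06 ± 0.37 in prefrontal cortex (-0.89 to 0.78) and 0.21 ± 0.37 in striatum (-0.62 to 1.05). The regional difference was 0.23 ± 0.37 in light drinkers (-0.60 to 1.06) and 0.50 ± 0.37 in inflexible drinkers (-0.33 to 1.34). Of these 4 intervals 3 reach above 1 log2 unit. The remaining Gq-coupled genes, Htr2b, Adra1b and Chrm3, had group means of 2.91 to 3.06.

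Part of the spread of Chrm1 and Htr2c went with the hybridisation controls. An exception was Htr2c in inflexible striatum, where the high-control replicate 1 (5.90) read below the low-control replicate 2 (6.00). In the fit with the block, arrays with high controls read higher by 0.75 ± 0.15 for Chrm1 (adjusted p = 0.0064) and by 0.63 ± 0.15 for Htr2c (adjusted p = 0.0133). Adra2c (-0.16 ± 0.04), Htr1d (-0.15 ± 0.04) and Htr1a (-0.11 ± 0.03) read lower on those arrays, and Chrna6 read higher by 0.09 ± 0.02. These 6 of the 32 genes passed the test for the separation, against 27.7% of all probe sets.

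The Gs-coupled receptor genes stayed below log2 3.5. Htr4, a serotonin receptor of striatal projection neurons, had the widest regional range among them (1443365_at), at 2.93, 3.08 and 2.90 in light prefrontal cortex against 3.22, 3.38 and 3.42 in light striatum. The difference of 0.37 ± 0.09 (0.17 to 0.58) had a limma adjusted p of 0.0643, and 0.0335 with the block. In inflexible drinkers Htr4 read 3.10, 2.99 and 3.05 in prefrontal cortex and 3.35, 3.47 and 3.11 in striatum, again without overlap (0.26 ± 0.09, limma adjusted p = 0.436). The second Htr4 probe set (1427654_a_at) had group means of 2.92 in light prefrontal cortex and 2.94 in light striatum. Htr6, which is known from striatal neurons, had group means of 2.93 to 2.98, and Htr7 of 3.00 to 3.08.

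Of the ion channel subunits, Chrna7 alone was read above log2 4. It forms channels of high calcium permeability from identical subunits (1440681_at). The arrays read 4.47, 4.74 and 4.33 in light prefrontal cortex and 4.94, 4.99 and 4.95 in inflexible prefrontal cortex. They read 5.25, 4.94 and 5.13 in light striatum and 4.89, 5.01 and 5.48 in inflexible striatum. The light prefrontal arrays were the 3 lowest of the 12, and the other 3 groups lay together. The class difference of Chrna7 in prefrontal cortex was 0.45 ± 0.15 (0.11 to 0.79), with a limma adjusted p of 0.393, and 0.55 ± 0.08 among the low-control arrays alone (adjusted p = 0.0422). Between the single high-control arrays it was 0.26. In striatum it was 0.02 ± 0.15 (-0.32 to 0.36). The regional difference was 0.60 ± 0.15 in light drinkers (0.25 to 0.94, limma adjusted p = 0.0770, and 0.0273 with the block) and 0.17 ± 0.15 in inflexible drinkers (-0.18 to 0.51). The second Chrna7 probe set (1450299_at) had group means of 3.00 to 3.03.

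The other 14 nicotinic subunit genes had group means of 2.87 to 3.60. Chrna4 and Chrnb2, whose products make up the most common nicotinic receptor of the brain, ranged from 3.19 to 3.60, with Chrnb2 at 3.41 ± 0.09 in light prefrontal cortex and 3.54 ± 0.19 in light striatum. The neighbouring genes Chrna5, Chrna3 and Chrnb4, transcribed in habenula and autonomic ganglia, read 2.87 to 2.97. Chrnb3 and Chrna6, neighbours in the genome that are used on dopamine axons, read 2.96 to 3.03. The subunits of the muscle receptor (Chrna1, Chrnb1, Chrnd, Chrne and Chrng) read 2.91 to 3.12. The 6 skeletal muscle marker genes averaged 3.02 to 3.09 on the same arrays. Htr3b, the one serotonin-gated channel subunit included, had group means of 2.91 to 2.98.

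The comparison of the drinking classes in prefrontal cortex asked which receptor transcripts differed between mice that went on drinking bitter ethanol and mice that drank mainly water. The limma fit called 0 of the 32 receptor genes at an adjusted p under 0.05, where 0.826% of all 45037 probe sets were called. At an unadjusted p under 0.05 there were 3 receptor genes (Chrna7, Htr1a and Htr1b), against 7.61% of all probe sets. Arrays of the 2 classes did not overlap for 5 genes, against 12.9% of all probe sets. Adra2c, Chrna7, Htr1b and Htr5b were the 4 that were higher in inflexible drinkers (6.48% of all) and Chrna4 the 1 that was lower (6.46%). The median difference over the 32 genes was -0.0022, with -0.00057 over all probe sets. The 25 genes below log2 3.5 differed by -0.12 to 0.08.

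In striatum 0 of the 32 receptor genes were called, against 0.0111% of all probe sets. At an unadjusted p under 0.05 there were 2 (Htr1b and Htr5b), against 3.53% of all. Htr1b and Htr6 were higher and Htr1a and Htr5b lower in inflexible drinkers without overlap, 4 genes against 7.84% of all probe sets (4.2% higher and 3.64% lower). The median difference over the receptor genes was 0.013, with 0.0020 over all probe sets. Blocking for the separation of the arrays left 0 receptor genes called in either region, against 2.48% of all probe sets in prefrontal cortex and 0.0755% in striatum.

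**Figure D3:**
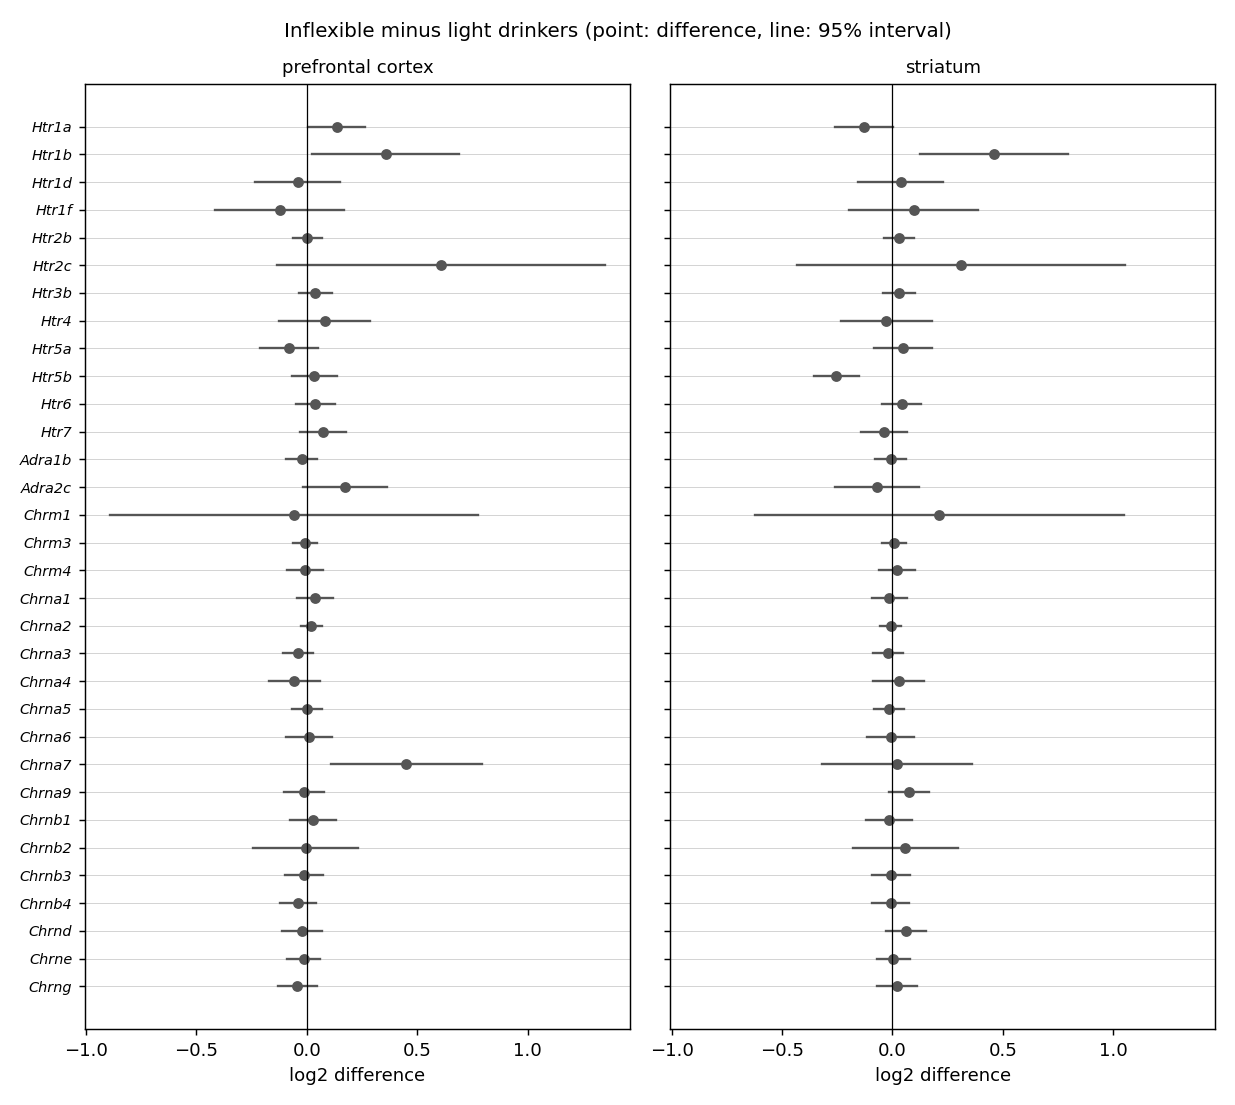
Inflexible minus light drinkers for each of the 32 receptor genes in prefrontal cortex (left) and striatum (right), as log2 difference (point) with its 95% interval (line). No gene passed the adjusted threshold; Htr2c and Chrm1 have the widest intervals, and the interval of Htr1b lies right of 0 in both regions while that of Htr5b lies left of 0 in striatum.

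Whether the class difference was the same in both regions was tested by the interaction, the striatal minus the prefrontal class difference. It called 0 of the 32 receptor genes, against 0.313% of all probe sets, and 0 with the block, against 0.984%. Htr5b and Htr1a were the 2 with an unadjusted p under 0.05, against 5.62% of all. The interaction was -0.29 ± 0.06 for Htr5b (-0.43 to -0.14, limma adjusted p = 0.166) and -0.26 ± 0.08 for Htr1a (-0.45 to -0.08, limma adjusted p = 0.454). Htr5b and Htr1a thus had positive class differences in prefrontal cortex (0.03 ± 0.05 for Htr5b and 0.14 ± 0.06 for Htr1a). Their class differences in striatum were negative (-0.25 ± 0.05 and -0.13 ± 0.06), without passing after adjustment. For Chrna7 the interaction was -0.43 ± 0.22 (-0.91 to 0.05), and for Htr1b 0.10 ± 0.21 (-0.37 to 0.57). It was -0.30 ± 0.47 for Htr2c (-1.35 to 0.75) and 0.27 ± 0.53 for Chrm1 (-0.91 to 1.45).

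The regional comparison within light drinkers described how the receptors were distributed in mice of low intake. Htr1a, Htr1b and Htr5b were higher in striatum, 3 of the 32 receptor genes, where 3.32% of all probe sets were called and 1.47% were called as higher. As lower, 0 receptor genes were called, against 1.86% of all. At an unadjusted p under 0.05 there were 10, against 11.4% of all. Without overlap, 7 genes were higher in striatum (Adra2c, Chrna7, Htr1a, Htr1b, Htr2c, Htr4 and Htr5b; 7.69% of all) and 3 lower (Adra1b, Chrm3 and Htr1f; 8.65% of all), together against 16.3% of all probe sets. With the block the same 7 that were higher without overlap were called, against 7% of all probe sets. The median over the 32 genes was 0.016, with -0.0019 over all probe sets. The count ran from 2 to 5 with single arrays left out (5 without inflexible striatum replicate 3), against 942 to 1607 of all 45037 probe sets. When the arrays of light drinkers alone were fitted, the Htr1b call was the one that remained, against 2.25% of all probe sets.

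Within inflexible drinkers Htr1b was higher in striatum and was the 1 receptor gene called, against 0.773% of all probe sets and 0.34% called as higher. With the block Htr1b was again the 1 called, against 2.16% of all. At an unadjusted p under 0.05 there were 2 (Htr1b and Htr4), against 7.4%. Chrna9, Htr1b and Htr4 were higher (5.56% of all) and Htr7 lower (5.98%) without overlap, together against 11.5% of all. The median over the receptor genes was 0.021, with 0.00039 over all probe sets. The Htr1b call was lost without inflexible prefrontal cortex replicate 1 (adjusted p = 0.0582), without replicate 2 of that group (0.0623) and with inflexible drinkers' arrays alone (0.203). With single arrays left out the difference ran from 0.85 to 1.20. The 2 regional comparisons share no arrays, and the test of their difference is the interaction given above.

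**Figure D4:**
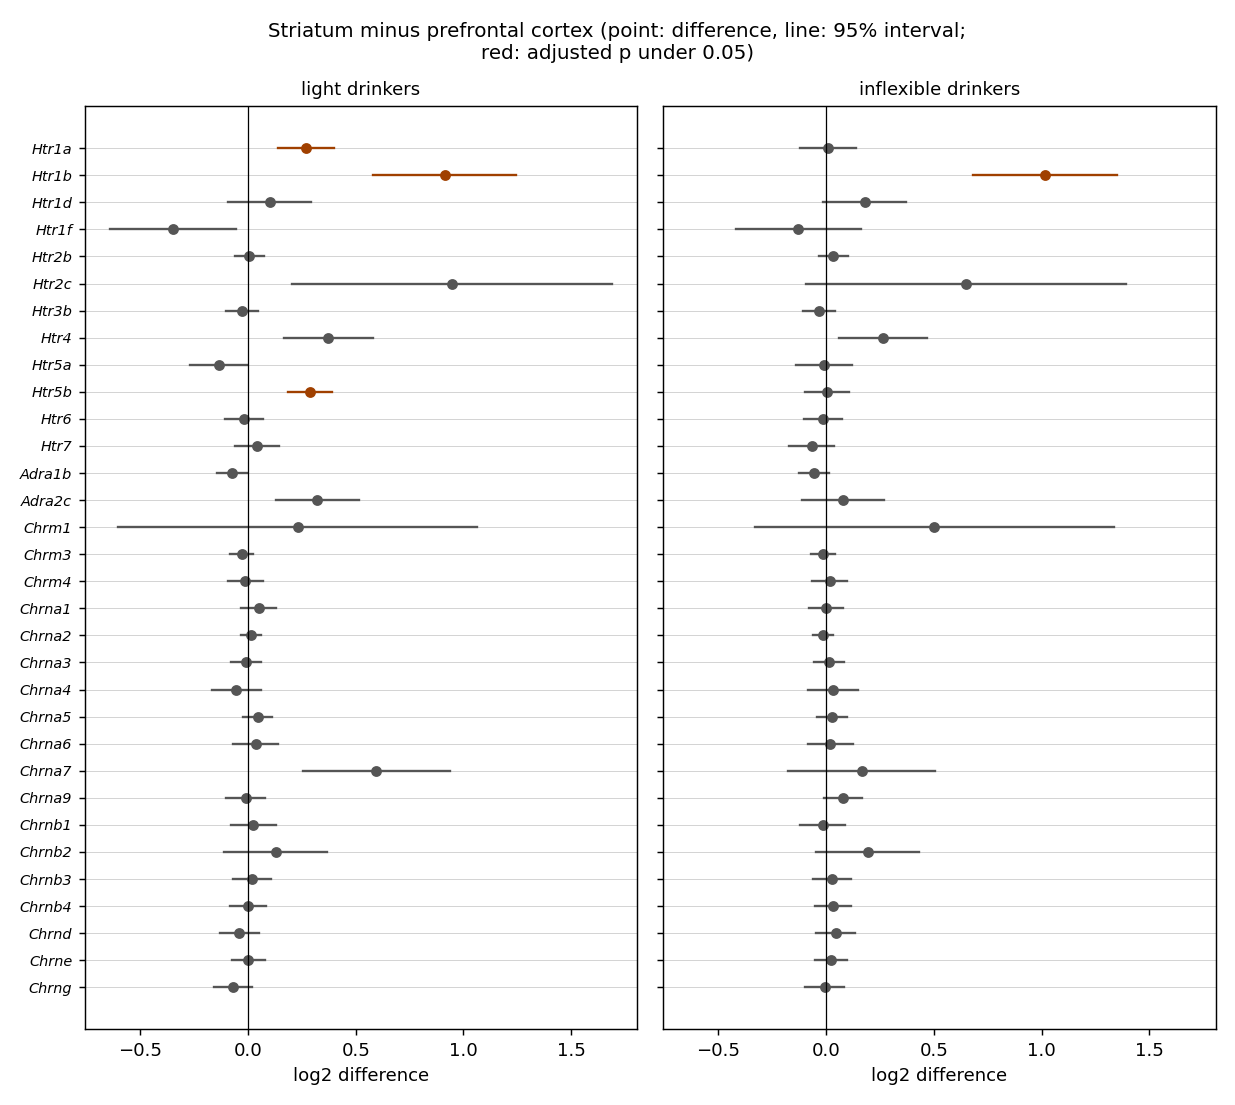
Striatum minus prefrontal cortex for each of the 32 receptor genes in light drinkers (left) and inflexible drinkers (right), as log2 difference (point) with its 95% interval (line); red marks an adjusted p under 0.05. Htr1b is red in both panels, near 1 log2 unit, and Htr1a and Htr5b are red in light drinkers only.

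The limma fit called 0 of the genes that supply and clear the transmitters in any of the 5 comparisons. Of the serotonin list, 7 genes were measured: Tph2, the neuronal serotonin-making enzyme, had group means of 2.87 to 2.89, and Slc6a4, the serotonin transporter, of 2.94 to 2.98. The monoamine oxidase genes Maoa and Maob, which break down serotonin and noradrenaline, read 4.25 to 4.44 and 4.18 to 4.42. Of the noradrenaline list 7 were measured, with Th at 2.96 to 3.05 and Dbh, the enzyme that makes noradrenaline, at 3.94 to 4.07. All 6 genes of the acetylcholine list were measured. Chat, the acetylcholine-making enzyme of striatal interneurons, read 2.94 ± 0.03 in light and 2.99 ± 0.04 in inflexible striatum, the region that holds these interneurons, against 2.99 ± 0.04 and 2.95 ± 0.01 in prefrontal cortex. Ache, which degrades acetylcholine, read 3.96 in inflexible and 3.82 in light striatum, against 3.52 and 3.55 in prefrontal cortex.

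Of the genes whose products assist these receptors or limit their signalling, 18 were measured. In light drinkers 4 of them were called between the regions (3.32% of all probe sets), with Rgs2 higher in striatum and Lypd6b, S100a10 and Rgs4 lower. In inflexible drinkers 4 were called (0.773% of all), with Rgs2 and Rgs8 higher and S100a10 and Rgs4 lower. S100a10 encodes p11, an adaptor that carries the Htr1b protein to the cell surface. It had group means of 4.81 in light and 4.53 in inflexible prefrontal cortex, and of 3.95 and 4.00 in striatum. The regional difference of S100a10 in light drinkers was -0.86 ± 0.08 (limma adjusted p = 0.000312), opposite in sign to that of Htr1b. Rgs2, which speeds the shutdown of Gq signalling, read 6.13 and 7.20 at its lowest and highest group means (light prefrontal cortex and inflexible striatum). In the class and interaction comparisons 0 of the 18 partner genes were called. With the block, Lypd6b (adjusted p = 0.0088) and S100a10 (0.0188) were lower in inflexible than in light prefrontal cortex, against 2.48% of all probe sets called. The interaction of the receptor kinase gene Grk5 was called (0.0313), against 0.984% of all. Between the regions in light drinkers the block also called Lypd1 (0.0094) and Rgs8 (0.0152) as higher in striatum. It called Grk3 (0.0055) and Grk5 (0.0292) as lower there, against 7% of all probe sets called. Of the 10 G protein alpha subunit genes 0 were called in any comparison. With the block Gnal, the striatal form that couples receptors to cyclic AMP, was higher in striatum in light (adjusted p = 0.0400) and inflexible drinkers (0.0389). Of all probe sets, 7% and 2.16% were called in these 2 comparisons.

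Markers of several cell types differed between the same groups. All 10 measured medium spiny neuron markers were higher in striatum in both classes, and 6 of the 10 were higher in inflexible than in light prefrontal cortex. The mean of that list on single arrays ran from 4.28 to 4.40 in light and 5.28 to 5.38 in inflexible prefrontal cortex. In striatum it ran from 6.38 to 6.51 in light and 6.85 to 7.01 in inflexible drinkers. The group means of Htr1b and of Htr2c had the same order of groups. Of the 9 myelin genes, 5 were higher in inflexible prefrontal cortex, and list means ran from 4.61 to 4.78 there in light and 5.66 to 5.77 in inflexible drinkers, against 6.11 to 6.34 in striatum. Of the 11 choroid plexus genes, 1 (Ttr) was higher in inflexible prefrontal cortex and 6 were higher in light striatum than in light prefrontal cortex. Their list mean was 3.14 to 3.17 in light prefrontal cortex, 3.84 to 3.99 in inflexible prefrontal cortex and 4.06 to 4.17 in striatum. The median class difference over the 11 genes in prefrontal cortex was 0.20, smaller than the gap between these list means, which include Ttr.

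The cholinergic neuron list, 7 genes, was led by Isl1, which was higher in striatum in both classes (3.66 against 2.92 in light drinkers). Lhx8 read 3.14 in light and 3.22 in inflexible striatum, against 2.89 and 2.94 in prefrontal cortex, and was not called in light (adjusted p = 0.147) or inflexible drinkers (0.206). The other defining genes Chat, Slc18a3 and Slc5a7 read 2.89 to 2.99. Of 9 cortical excitatory neuron genes, Tbr1, Cux2, Rorb and Slc30a3 were lower in light striatum than in light prefrontal cortex, and Neurod6 was higher. In inflexible drinkers Tbr1 and Cux2 were called as lower in striatum. Neurod6 was also called as higher in inflexible than in light prefrontal cortex, and its interaction was called with a negative sign. The median class difference over the 9 genes in prefrontal cortex was -0.24. The light prefrontal group, which had the lowest mean for Htr1b, Htr2c and Chrna7, also had the lowest list means for medium spiny, myelin and choroid plexus genes. The list mean of the 6 thalamus and septum genes had the order of groups seen for Htr1a and Htr5b. It was lowest in light prefrontal cortex (3.66 to 3.78), 3.81 to 3.90 in the inflexible groups and highest in light striatum (4.01 to 4.02). The genes did not all share this order. Their median inflexible minus light difference was 0.012 in prefrontal cortex and -0.034 in striatum, and their median regional difference in light drinkers was 0.21. Of the 6 genes, Prox1 and Trpc4 were called as higher in inflexible than in light prefrontal cortex and in light striatum than in light prefrontal cortex. The part of these cell types in the receptor values was not tested.

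**Figure D5:**
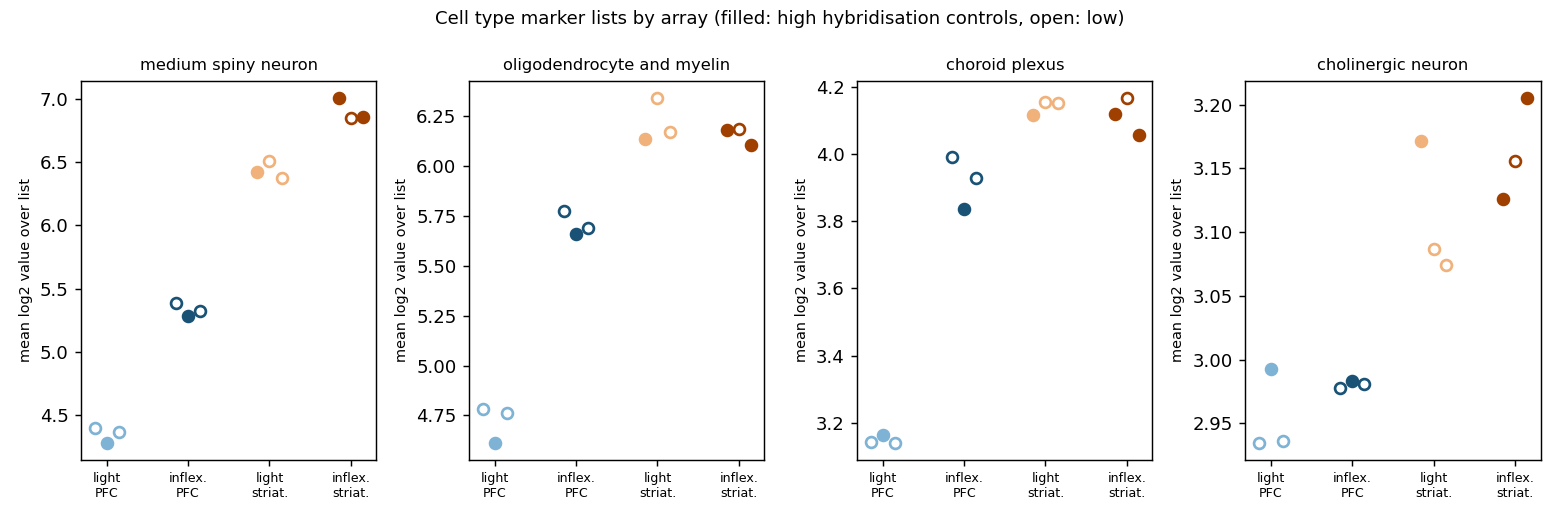
Mean log2 value over 4 cell type marker lists on each array, by group; filled points are arrays with high hybridisation controls and open points those with low. In the first 3 lists the light prefrontal arrays are lowest and the inflexible prefrontal arrays lie between them and the striatal arrays; the cholinergic list spans a narrow range, from 2.93 to 3.21.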

How the data were processed

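Per the labels' protocols, total RNA from both regions was extracted with TRIzol and labelled with biotin for 1-colour arrays. The authors deposited a single table with 1 value for each probe set and array, treated as log2. The submitters' processing notes name RMA and affy, with no version. The log base was read from the values and is not stated. This kind of summary compresses low values, so folds of weakly read genes are understated, and no probe set is shown to be above background.

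After 64 control probe sets were left out, 45037 were fitted over all 12 arrays with 4 group means in limma 3.58.1 (lmFit and eBayes, R 4.3.3, 8 residual df). Two-sided p-values were adjusted by Benjamini-Hochberg over all 45037 and called under 0.05. The script was tested on simulated data. Tables used Python 3.11.15 and pandas 2.3.3.

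The receptor genes and the lists of other genes were chosen with earlier results of these data known, and so was the separation of arrays, drawn where the mean hybridisation control values leave their widest gap. Full values are given for receptor genes called in any comparison or above log2 4 in any group. A few others (Adra2c, Htr4, Htr1f and the second Htr1d probe set) were chosen after their values were seen. The gene IDs of all 32 matched the RefSeq table (GRCm38.p6), which changed 0 symbols. One further serotonin receptor gene is not reported here. Alternatives covered the blocks, the arrays used, normalisation, filtering, probe set choice, the prior and array weights. The number of arrays limits the precision.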

Additional observations from a re-analysis of the deposited data

How the results depend on the processing

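Of the 18 same-numbered pairs of arrays, 7 correlated above 0.1 (from -0.77 to 0.85 over 10852 probe sets). Most of these pairs join different drinking classes, and the separation by hybridisation controls was not removed. The highest correlation joined 2 high-control arrays and the lowest a high-control and a low-control array. Whether both regions came from the same mice therefore cannot be read from these values. With the replicate block 0 receptor genes were called in prefrontal cortex (0.457% of all probe sets), in striatum (0.00888%) and for the interaction (0.113%). In the light regional comparison 2 were called (Htr1b and Htr5b), against 2.57% of all, with Htr1a at a limma adjusted p of 0.0722. In the inflexible regional comparison 1 was called (Htr1b), against 0.54%.

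Counts of receptor genes called moved as follows. In prefrontal cortex 3 were called with low-control arrays only (Chrna7, Htr1b and Htr2c, 2.76% of all probe sets) and 2 with array weights (Chrna7 and Htr1b, 6.56%), all higher in inflexible drinkers. Array weights called 1 interaction (Htr5b, 1.78%). The light regional count was 7 with the array split as a block (7%), 7 with low-control arrays only (8.38%) and 1 with only the groups compared (Htr1b, 2.25%). Array weights called 9 (10.4%), of which 7 were higher in striatum and 2 lower (Adra1b and Chrna4). With single arrays left out the count was 2 to 5 (5 without inflexible striatum replicate 3), against 942 to 1607 of all 45037 probe sets. The inflexible regional count was 0 with only the groups compared (0.135%) and 0 to 1 with single arrays left out, against 158 to 404 of all 45037 probe sets. With low-control arrays only, inflexible striatum is 1 array, so no count is given for this comparison. The high-control fit had 1 residual degree of freedom and called 0 of all probe sets, so its counts say nothing about stability. The cause of these shifts was not tested. Quantile normalisation, the limma-trend prior and the mean of probe sets kept each count within 1.5 times, but not the same genes in light drinkers between regions. The limma-trend prior (3% of all probe sets called) lost Htr1a (limma adjusted p = 0.0716) and called Htr4. Quantile normalisation (3.58%) and the mean of probe sets (5.9% of genes) added Adra2c. A filter on low values, with at least 3 arrays above log2 4, kept 4 receptor genes and removed Htr1a and Htr5b before testing. Its counts therefore cannot be set against those of the main fit. In light drinkers between regions it called Chrna7 and Htr1b (9.92% of the probe sets kept). Htr1b passed the filter only through its striatal arrays, so this call adds no support to its regional difference.

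Receptor genes above log2 3.5 numbered 6, 4, 7 and 7 (inflexible and light prefrontal cortex, inflexible and light striatum), against 34.8% to 35.2% of all probe sets. Above log2 5 there were 1, 0, 3 and 3, against 11.5% to 11.6% of all probe sets. Above log2 4 with probe sets averaged there were 1, 1, 4 and 3, against 25.0% to 25.4% of all named genes.

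Signs turned only for differences that were not called. Chrm1 was 0.35 in prefrontal cortex with high-control arrays, and in striatum -0.036 with the split as a block and -0.31 with low-control arrays. Chrna7 in striatum was -0.045 with the block, -0.022 with low-control and -0.070 with high-control arrays, and Htr2c there -0.074 with high-control arrays. The inflexible regional difference of Htr1a was -0.0018 after quantile normalisation and -0.038 with array weights, and that of Htr5b -0.00062 with the block and -0.032 with high-control arrays. With single arrays left out Chrm1 ranged from -0.34 to 0.16 in prefrontal cortex, -0.051 to 0.60 in striatum and -0.020 to 0.49 between regions in light drinkers. Chrna7 ranged from -0.16 to 0.14 in striatum and -0.0098 to 0.28 between regions in inflexible drinkers, where Htr1a ranged from -0.040 to 0.043 and Htr5b from -0.031 to 0.032.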
